A study of Mus musculus with 4 samples.

Results

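Intermediate neutrophils with gelatinase granules are neutrophils between an earlier and a later stage: they carry few UMIs of 2 genes of earlier precursors and few of 2 genes of the latest cells. They were chosen by raw counts of unique molecular identifiers (UMIs, 1 per captured RNA molecule). A barcode had to hold at least 1000 UMIs and 200 genes, with at most 15% of UMIs from mitochondrial genes and at least 5% from S100a8 and S100a9, the calprotectin genes that mark neutrophils. It then needed at least 10 UMIs of Mmp8 and Retnlg, at most 4 of Fcnb and Cebpe, at most 2 of Il1b and Cxcr2 and at most 3 of the B cell genes Cd79a and Cd79b. Of 15014 barcodes, 11980 passed the first 3 limits and 953 met the whole rule, 7.95% (exact 95% interval 7.48 to 8.45) of those that passed. They were 32.9% of the 2893 barcodes rich in S100a8 and S100a9 that also met the limit on Cd79a and Cd79b. For comparison, 812 earlier neutrophils had at least 5 UMIs of Fcnb and Cebpe with at most 2 of Il1b and Cxcr2, and 858 later neutrophils had at least 3 of Il1b and Cxcr2 with at most 4 of Fcnb and Cebpe. A further 36 barcodes exceeded both limits, and 234 were below all 3.

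The cells came from tibiae, both proximal and distal, of 8-week-old mice, released with dispase, collagenase and trypsin and profiled by droplet-based 10x Genomics sequencing. All 4 sample records are 1 group with the genotype Col10a1Cre, Rosa26-Tdtomato, Irx3 +/Δ and Irx5 +/-, which the labels call the heterozygous control, and all 4 titles carry the words Ctrl and noPTH. Every cell described here therefore comes from animals with 1 altered allele of Irx3 and of Irx5, and no animals without them were compared. Col10a1Cre is a driver of hypertrophic chondrocytes, a cartilage cell type that is not of the blood lineage. The 4 records share 1 matrix and their barcodes 1 suffix, which leaves no way to divide the cells by record. How many animals gave the cells is not stated in the labels. Whether the 4 records are 1 library or several is not known. The data are 1 pooled matrix that cannot be divided into replicates: there is no test, and 95% intervals below hold counting error alone.

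Neutrophils are made in the marrow in a fixed order. Promyelocytes fill azurophil granules with myeloperoxidase and serine proteases, myelocytes and metamyelocytes make specific granules with lactoferrin and cathelicidin, and band cells make gelatinase granules with matrix metalloproteinase 9. Division stops after the myelocyte stage. Segmented cells then acquire secretory vesicles with receptors for bacterial peptides and complement, and leave the marrow when signals through CXCR2 outweigh retention by CXCR4. Granule genes are switched on in waves under C/EBP family factors and PU.1, and the protein stays in the granule long after its transcript has gone. Of the 4 marker genes, Mmp9 encodes gelatinase B, Mmp8 neutrophil collagenase, which is stored mainly in specific granules, Retnlg a resistin-like secreted protein, and Ly6g the surface antigen used to sort mouse neutrophils.

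Sequences before the start sites of 7 granule and marker genes are shown because the results turn on these genes and C/EBP factors are known regulators of the granule programme. Each run is the 250 bases before the start in the RefSeq table of GRCm38.p6, written 5′ to 3′ on the gene's own strand, with matches to the C/EBP core TTGCNNAA, or its reverse complement TTNNGCAA, in capitals. Of 9 genes looked up, 8 had an entry, and Mmp9 had none. Ngp lies at chr9:110419558-110419807, plus strand, Ltf at chr9:111019042-111019291, plus strand, Lcn2 at chr2:32387740-32387989, minus strand and Camp at chr9:109849457-109849706, minus strand. Mmp8 lies at chr9:7558179-7558428, plus strand, Retnlg at chr16:48872358-48872607, plus strand, and the first of 2 Ly6g starts at chr15:75155011-75155260, plus strand.
Ngp: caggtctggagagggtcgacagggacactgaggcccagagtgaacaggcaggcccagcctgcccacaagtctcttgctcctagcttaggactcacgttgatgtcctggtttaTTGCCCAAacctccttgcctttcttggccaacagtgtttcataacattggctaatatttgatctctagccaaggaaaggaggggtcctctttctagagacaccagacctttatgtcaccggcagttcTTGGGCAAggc
Ltf: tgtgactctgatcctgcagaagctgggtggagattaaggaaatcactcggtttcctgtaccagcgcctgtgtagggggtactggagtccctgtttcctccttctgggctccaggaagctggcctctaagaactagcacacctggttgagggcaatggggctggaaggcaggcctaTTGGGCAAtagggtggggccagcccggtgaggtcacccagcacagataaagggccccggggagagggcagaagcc
Lcn2: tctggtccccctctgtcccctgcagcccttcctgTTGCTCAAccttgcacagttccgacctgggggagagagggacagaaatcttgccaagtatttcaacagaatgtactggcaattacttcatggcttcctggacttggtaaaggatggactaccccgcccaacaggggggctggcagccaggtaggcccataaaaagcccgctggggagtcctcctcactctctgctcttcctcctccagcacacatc
Camp: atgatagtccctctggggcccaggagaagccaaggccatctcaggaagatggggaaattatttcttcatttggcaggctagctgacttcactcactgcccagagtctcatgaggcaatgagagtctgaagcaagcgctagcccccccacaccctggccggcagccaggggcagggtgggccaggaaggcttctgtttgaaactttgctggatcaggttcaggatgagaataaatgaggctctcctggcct
Mmp8: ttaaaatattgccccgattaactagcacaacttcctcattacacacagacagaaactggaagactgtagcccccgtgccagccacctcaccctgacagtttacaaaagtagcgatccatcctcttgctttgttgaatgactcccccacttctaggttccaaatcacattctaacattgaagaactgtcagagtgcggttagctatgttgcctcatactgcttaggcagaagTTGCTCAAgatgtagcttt
Retnlg: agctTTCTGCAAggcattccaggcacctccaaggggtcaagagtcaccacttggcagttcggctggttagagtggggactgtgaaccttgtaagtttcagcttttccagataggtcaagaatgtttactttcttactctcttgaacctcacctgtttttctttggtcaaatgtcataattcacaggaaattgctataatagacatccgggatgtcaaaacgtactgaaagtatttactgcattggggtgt
Ly6g: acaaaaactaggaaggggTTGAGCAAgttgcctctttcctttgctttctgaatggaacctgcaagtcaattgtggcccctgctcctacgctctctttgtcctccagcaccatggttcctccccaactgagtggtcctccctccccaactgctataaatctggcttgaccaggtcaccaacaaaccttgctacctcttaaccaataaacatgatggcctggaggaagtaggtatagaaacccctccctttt

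Ngp holds 2 matches, while Ltf, Lcn2, Mmp8, Retnlg and this Ly6g start hold 1 each. Camp holds none, nor does Chil3, whose sequence is not shown. Over all 32851 promoter windows of this length, 9.56% hold the core. Counted by gene, 7 of 18 specific granule genes with an entry hold it (Anxa1, Lcn2, Ltf, Ngp, Ptx3, Slpi and Stfa1), against 10.8% of 27025 genes and 1 of 14 genes of gelatinase granules and matrix enzymes (Adam8). The palindrome TTGCGCAA is in 0.164% of windows and in no gene of either list. The PU.1 core GAGGAA, or its reverse complement TTCCTC, is in 10 of the 18, in 6 of the 14 and in 25.9% of all genes. The motifs were counted separately, and their matches may overlap. A match describes these letters only.

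Depth differed between the stages. Median UMIs per cell were 14251.5 in earlier, 4612 in intermediate and 2693 in later cells, over 11945097, 4858609 and 2918957 UMIs in all. Thinned to 1000 UMIs, intermediate cells had a median of 439 genes, earlier cells 457 and later cells 486.5. Levels below are summed UMIs of a stage scaled to a total of 1000000 (CPM). Mitochondrial UMIs were a median 2.78%, 1.55% and 1.503% in earlier, intermediate and later cells. Because limits in raw UMIs act harder on deep cells, the rule was repeated with limits scaled to each cell's depth: 678 of the 953 cells (71.1%) stayed, 227 (23.8%) counted as later and 11 (1.15%) as earlier.

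Of the 4 marker genes, the rule required UMIs of Mmp8 and Retnlg together, so their presence was fixed by the choice of cells. Mmp9, which the rule did not use, had a UMI in 907 of 953 intermediate cells and Ly6g in 794. Markers of other cell types were low in most members, but 89 intermediate barcodes (9.34%) carried at least 5 UMIs and 0.1% of UMIs of another type's markers, or over 10% of erythroid ones. The same held for 59 earlier (7.27%) and 78 later barcodes (9.09%). Summed levels of the 5 basophil and mast cell markers were 4.19, 196 and 4.80 CPM in earlier, intermediate and later cells, with 915 of the 952 intermediate UMIs in 3 barcodes. The 8 osteoblast or stromal markers were at 37.0, 334 and 186 CPM, with 930 of 1621 intermediate UMIs in 1 barcode. Erythroid markers were at 15418, 38444 and 51465 CPM, and the median cell had 0.0682%, 0.166% and 0.251% haemoglobin UMIs. Monocyte markers were at 36.8, 45.5 and 131 CPM, with a median of 0 UMIs per intermediate cell. Results below are given without the mixed barcodes where leaving them out matters.

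The genes of the rule are described without comparison. Mmp8 was at 52.2 CPM in earlier, 2419 CPM in intermediate and 2764 CPM in later cells. Retnlg was at 761, 16509 and 32360.2 CPM in the same order. In intermediate cells the interquartile range was 10.1 to 44.2 Mmp8 UMIs and 69.5 to 338 Retnlg UMIs per 10000, so Retnlg varied widely within the stage. Cebpe, a factor needed for specific granules, was at 453, 96.9 and 38.7 CPM, and Fcnb, the ficolin B gene of early precursors, at 847, 32.9 and 3.08 CPM. Il1b was at 3.60, 37.3 and 1467 CPM and Cxcr2, a chemokine receptor for egress, at 15.2, 111 and 682 CPM. Of the 953 cells, 628 (65.9%) had no UMI of Fcnb and Cebpe and 437 (45.9%) none of Il1b and Cxcr2.

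The 30 cells with 10 to 12 Mmp8 and Retnlg UMIs had 58854 CPM of Camp and 621 CPM of Mmp9, against 51330 and 852 CPM in the 40 otherwise matching cells with 7 to 9. The 91 cells with 3 to 4 UMIs of Fcnb and Cebpe had 54137 CPM of Camp, against 55934 CPM in the 50 with 5 to 6. At the other limit, the 203 cells with 2 UMIs of Il1b and Cxcr2 had 24646 CPM of Camp, the 163 cells with 3 had 17374 CPM and the 437 cells with 0 had 44693 CPM. Camp thus stood lower from 0 to 2 to 3 UMIs of the later genes.

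Most genes stood between the other stages or close to both. A gene is called higher or lower at a 2-fold difference, if it has at least 50 UMIs over both stages. Against earlier cells, 928 of 8586 genes (10.8%) were higher and 2077 (24.2%) lower. Against later cells, 336 of 6565 (5.12%) were higher and 535 (8.15%) lower. Scaled without the 50 most abundant genes, the split against later cells turned to 540 higher and 388 lower, with the median of all genes at 0.16 on the log2 scale in place of 0.00. Against earlier cells that scaling moved it from -0.25 to -0.15. The list medians over later cells of NADPH oxidase (-0.03), actin (-0.15), nuclear shape (-0.09) and lipid mediator genes (-0.12) then turned to 0.14, 0.01, 0.07 and 0.04. Of 6496 genes measured in both comparisons, 4240 were within 2-fold of both stages, 262 were above earlier and below later cells, 106 were below earlier and above later cells, 33 were above both and 18 below both. The plot of list medians shows each gene group against both neighbours.

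**Figure D1:**
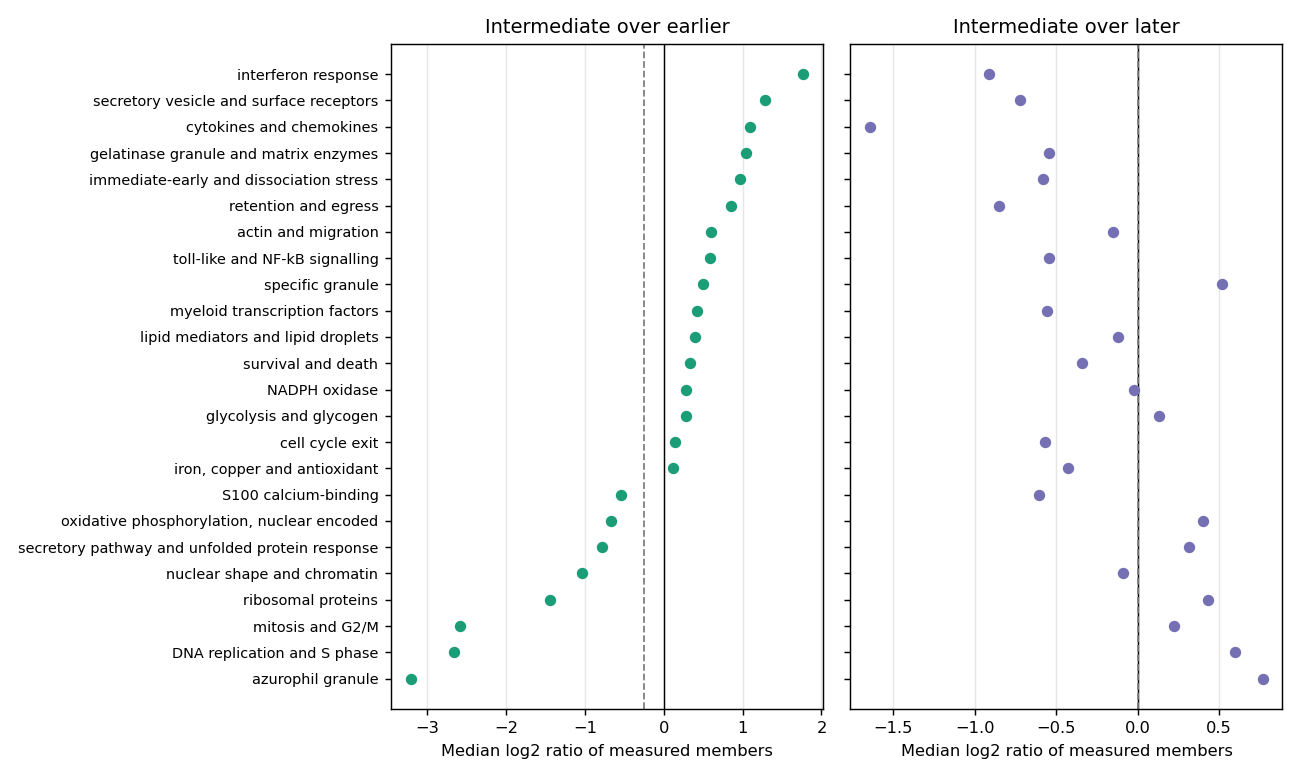
Median log2 ratio of the measured members of each of 24 gene lists, intermediate over earlier cells (left) and over later cells (right), 1 point per list. The dashed line is the median of all measured genes (-0.25 and 0.00) and the solid line is 0. Azurophil granule and cell cycle genes lie far to the left on the left, and cytokines and chemokines are the lowest list on the right.

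Most azurophil granule genes were low in intermediate cells. Of 12 measured, 0 were higher and 8 lower than in earlier cells, where 24.2% of all genes were lower. The median log2 ratio was -3.21 against -0.25 over all genes. That list median ran from -4.76 without Scrublet doublets to -1.91 when earlier cells also had to hold 10 Mmp8 and Retnlg UMIs. Elane, neutrophil elastase, was at 1915 CPM in earlier, 8.85 CPM in intermediate and 8.56 CPM in later cells, 216-fold (interval 161 to 299) lower than in earlier cells. Prtn3, proteinase 3, was 91.4-fold (interval 76.2 to 110.4) lower. The log2 ratios of these 2 over earlier cells, -7.74 and -6.51, were nearest to 0 at -5.69, with limits scaled by depth, and at -4.99, when earlier cells also had to hold 10 Mmp8 and Retnlg UMIs. Mpo, myeloperoxidase, was at 969, 77.8 and 20.9 CPM. Other members were not lower: Lyz2, lysozyme, was at 7747, 9051 and 5627 CPM and Srgn, the proteoglycan that packs granule proteins, at 804, 1512 and 3374 CPM. Against later cells, 4 of 12 were higher and 1 lower, where 5.12% of all genes were higher. Among the 4, Ctsg, cathepsin G, had 72.2% of its intermediate UMIs in 3 barcodes and Ms4a3 29.0%. The list median against later cells, 0.77, was -0.05 without Scrublet doublets.

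Specific granule transcripts were still abundant. Their summed share was 13.6% of UMIs in earlier, 11.9% in intermediate and 4.46% in later cells. Within the list, members took different courses. Camp, the cathelicidin precursor, was at 66026 CPM in earlier, 37018 CPM in intermediate and 10012 CPM in later cells, 1.78-fold (interval 1.77 to 1.79) lower than in earlier and 3.70-fold (interval 3.65 to 3.74) higher than in later cells. Chil3, a chitinase-like protein, was at 8748, 4932 and 999 CPM in the same order, and Orm1, an acute-phase carrier protein, at 251, 144 and 21.2 CPM. These 3 were already below their earlier level. Ngp, a cathelicidin-related granule protein, was level with earlier cells at 33925, 35403 and 11518 CPM. Ltf, lactoferrin, was highest in intermediate cells at 7160.0, 13539 and 3959 CPM, as were Lcn2, the siderophore-binding lipocalin, at 8949.5, 12319 and 6047 CPM, Cd177 at 719, 1229 and 677 CPM and Anxa1, annexin A1, at 1548, 2563 and 1226 CPM.

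Slpi, an inhibitor of neutrophil elastase, was within 2-fold of later cells at 215, 1138 and 1891 CPM, while Stfa2l1, a stefin-family protease inhibitor, was lower than in later cells at 2.43, 56.0 and 291 CPM. In all, 4 of 22 measured specific granule genes were higher and 0 lower than in earlier cells (median 0.50), where 10.8% of all genes were higher. Against later cells, 8 of 23 were higher and 4 lower (median 0.52), where 5.12% of all genes were higher and 8.15% lower. The 4 lower than in later cells were Stfa1, Stfa2, Stfa2l1 and BC100530, and the 4 higher than in earlier cells were Slpi, Stfa2l1, Stfa3 and BC100530. Stfa genes are near-identical copies whose reads could be split between them, so they are not independent members of these counts. Cybb, the membrane subunit of the NADPH oxidase and also a specific granule protein, was at 1682, 2214 and 908 CPM, 2.44-fold (interval 2.34 to 2.55) higher than in later cells. Of the 7 oxidase genes, Cybb was the 1 higher than in later cells (median -0.03), and 0 were lower in either comparison.

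**Figure D2:**
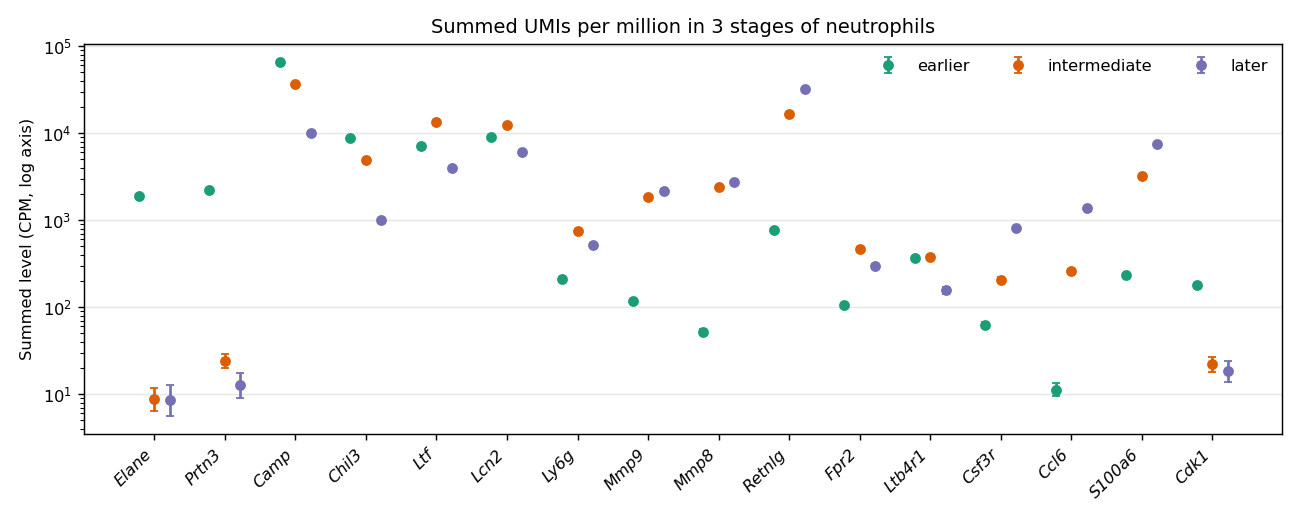
Summed level of 16 genes in earlier, intermediate and later neutrophils, on a log axis in CPM, with exact Poisson 95% intervals that are mostly smaller than the points. Elane, Prtn3 and Cdk1 are low in intermediate and later cells, Ltf, Lcn2, Ly6g and Fpr2 are highest in intermediate cells, and Csf3r, Ccl6 and S100a6 are highest in later cells. Mmp8 and Retnlg were used to choose the cells.

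Genes of gelatinase granules and matrix enzymes stood above earlier and below later cells by their list medians. Of 19 measured, 10 were higher and 2 lower than in earlier cells (median 1.04), where 10.8% of all genes were higher. Of 17, 0 were higher and 5 lower than in later cells (median -0.55), where 8.15% of all genes were lower. The summed share was 0.356%, 0.680% and 0.824% of UMIs. Mmp9 was at 118 CPM in earlier, 1830.2 CPM in intermediate and 2151 CPM in later cells, 15.4-fold (interval 14.6 to 16.4) higher than in earlier cells and within 2-fold of later cells. Its log2 ratio over earlier cells, 3.95, was 2.60 when those also had to hold 10 Mmp8 and Retnlg UMIs. Adam8, a membrane metalloproteinase, was at 78.3, 522 and 763 CPM and Timp2, a metalloproteinase inhibitor, at 27.8, 252 and 411 CPM. Arg2, arginase 2, was at 4.60, 91.4 and 274 CPM and Slc11a1, the phagosomal metal transporter NRAMP1, at 1.84, 36.6 and 116 CPM, so these 2 were well below later cells. Itgam, the CD11b chain stored in several granule types, was at 389, 728 and 600.2 CPM, and Pglyrp1, a peptidoglycan-binding protein, differed little at 1913, 1816 and 1749 CPM. The median against earlier cells was 0.91 when earlier cells also had to hold 10 Mmp8 and Retnlg UMIs.

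**Figure D3:**
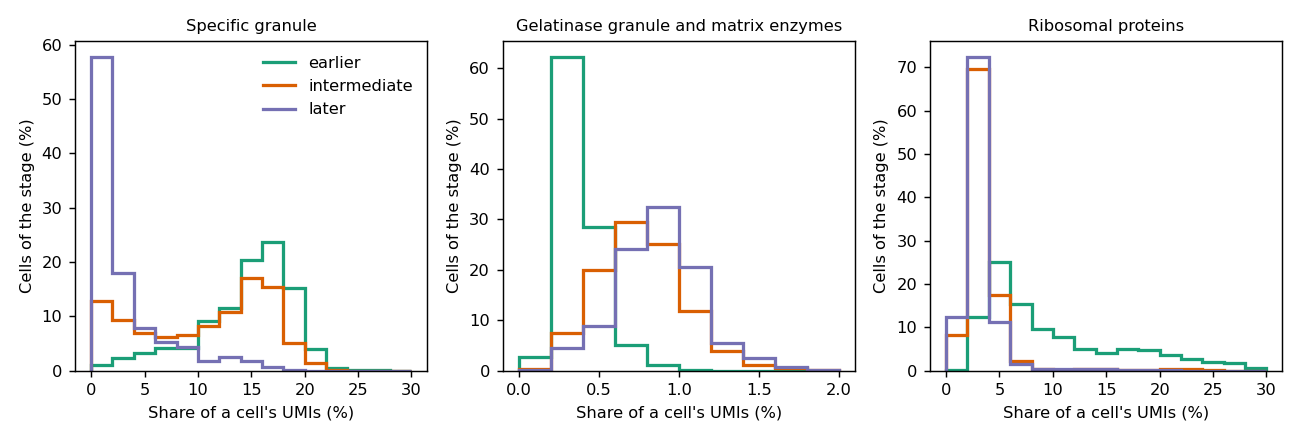
Share of each cell's UMIs from 3 gene lists, as the percentage of cells of a stage in each bin. Intermediate cells spread from under 2% to over 20% for specific granule genes, where earlier cells sit mostly at 10 to 20% and later cells mostly under 4%, while for gelatinase granule and ribosomal protein genes they lie close to later cells.

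Per cell, the specific granule share had a median of 15.5% in earlier, 11.9% in intermediate and 1.74% in later cells. The interquartile range of intermediate cells, 4.88 to 15.7%, overlapped the earlier range of 12.3 to 17.4%. For later cells it was 1.15 to 3.85%. The gelatinase granule share had medians of 0.356%, 0.747% and 0.871%, and there the intermediate interquartile range, 0.579 to 0.934%, overlapped that of later cells, 0.707 to 1.03%. The interquartile range of intermediate cells therefore met that of earlier cells for specific granule genes and that of later cells for gelatinase granule genes, and lay clear of the third stage in each case.

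Most surface receptor genes were higher than in earlier cells. Of 38 measured receptor and secretory vesicle genes, 23 were higher and 1 lower than in earlier cells (median 1.28), where 10.8% of all genes were higher. Against later cells, 1 was higher and 13 lower (median -0.72), where 8.15% of all genes were lower. The receptors fell into 3 courses. Ly6g, which the rule did not use, was highest in intermediate cells at 209 CPM in earlier, 745 CPM in intermediate and 520.4 CPM in later cells, 3.57-fold (interval 3.39 to 3.76) higher than in earlier and 1.43-fold (interval 1.35 to 1.52) higher than in later cells. Its log2 ratio over earlier cells, 1.84, was 1.06 when those also had to hold 10 Mmp8 and Retnlg UMIs. Fpr2, a receptor for formylated peptides, was also highest there at 107, 471 and 293 CPM. Ltb4r1, the leukotriene B4 receptor, was level with earlier cells and 2.43-fold (interval 2.19 to 2.69) higher than in later cells, at 372, 379 and 156 CPM. It was the 1 receptor called higher than in later cells.

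Other receptors were still far below later cells. Csf3r, the receptor for the growth factor G-CSF, was at 62.3, 206 and 804 CPM, 3.90-fold (interval 3.62 to 4.205) higher in later cells. Clec4d, a C-type lectin for mycobacterial glycolipids, was at 11.5, 247 and 948 CPM and Cd300ld, an activating receptor, at 4.52, 94.3 and 368 CPM. Il1r2, the decoy receptor for interleukin-1, was at 178, 942 and 1906 CPM, and Tlr2, the receptor for bacterial lipopeptides, at 14.5, 87.1 and 191 CPM. Clec12a, an inhibitory lectin, was the 1 receptor called lower than in earlier cells, at 388, 189 and 161 CPM, with a log2 ratio of -1.04 that was -0.58 when earlier cells also had to hold 10 Mmp8 and Retnlg UMIs.

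Retention and egress genes had a list median above earlier and below later cells. Of 12 measured, 6 were higher and 0 lower than in earlier cells (median 0.86), where 10.8% of all genes were higher. Without mixed barcodes, 5 were higher (median 0.72). Among the 6 was Cxcl12, at 5.69, 19.8 and 18.8 CPM, which is also 1 of the osteoblast or stromal markers used above. Against later cells, 1 was higher and 5 lower (median -0.85), where 5.12% of all genes were higher and 8.15% lower. Selplg, which encodes the adhesion ligand PSGL-1, was at 36.7, 134 and 400.1 CPM. Ccr1, a chemokine receptor, was at 37.6, 215 and 521 CPM. Cxcr4, the marrow retention receptor, was at 125, 177 and 443 CPM, a log2 ratio of 0.50 over earlier and -1.32 over later cells, and so was highest in later cells, which were chosen by Il1b and Cxcr2. Itgb1, the integrin beta 1 chain, was the 1 gene higher than in later cells, at 52.1, 34.0 and 14.4 CPM.

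Division genes were low. All 22 DNA replication genes and all 30 mitosis genes measured were at least 2-fold lower than in earlier cells, with medians of -2.67 and -2.59. In that comparison 24.2% of all genes were lower and 10.8% higher. Cdk1, the mitotic kinase, was at 179.8, 22.02 and 18.5 CPM, Rrm2, a subunit of ribonucleotide reductase, at 278, 30.3 and 16.1 CPM, and Mki67 at 558, 106 and 94.9 CPM. Against later cells, 2 of 18 replication and 3 of 25 mitosis genes were higher and 0 lower, where 5.12% of all genes were higher. These counts rested on the mixed barcodes: without them, 5 of 14 and 13 of 24 were higher and 0 lower. The count of higher genes over all genes was then 344 in place of 336. The list medians over later cells, 0.60 and 0.22 with all barcodes, also depended on the rule. They were 0.90 and 1.04 without mixed barcodes and 1.66 and 1.97 with limits scaled by depth. With no UMI of Fcnb, Cebpe, Il1b and Cxcr2 allowed they were -0.16 and -1.48. H2afz, a histone variant, differed from later cells at 3687, 1765 and 718 CPM, and it was seen in 832 cells. Of the genes of cell cycle exit (median 0.14), 2 of 10 were higher than in earlier cells, the antiproliferative genes Btg1 at 363, 1298 and 2477 CPM and Btg2 at 75.2, 295 and 721 CPM, and 1 was lower, Cdkn2c. Btg2 was also the 1 of 9 lower than in later cells (median -0.57), where 8.15% of all genes were lower.

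Ribosomal protein genes were low. All 80 measured ribosomal protein genes had lower levels than in earlier cells, 71 of them at least 2-fold, where 24.2% of all genes were that much lower (median -1.44), and their summed share was 11.3%, 4.23% and 3.46% of UMIs. None of the 80 was called in either direction against later cells (median 0.43). Rps20 was at 2588, 561 and 291 CPM and Rps9, the least different, at 2507, 1955 and 2115 CPM. For secretory pathway and unfolded protein response genes, 0 were higher and 9 of 29 lower than in earlier cells (median -0.78). Without mixed barcodes, 13 of 29 were lower (median -0.83), while the count of lower genes over all genes went from 2077 to 2226. Against later cells, 2 of 26 were higher and 1 lower (median 0.32), where 5.12% of all genes were higher and 8.15% lower. Manf, a chaperone of the endoplasmic reticulum, was at 113, 40.3 and 17.8 CPM, Hsp90b1, its Hsp90, at 268, 166 and 75.7 CPM, and Ddit3, the stress factor CHOP, had log2 ratios of 0.76 over earlier and -1.03 over later cells. Genes of oxidative phosphorylation encoded in the nucleus were lower than in earlier cells for 6 of 31 and higher for 0 (median -0.67), a smaller share lower than the 24.2% of all genes, with 1 higher and 0 lower than in later cells, Ndufb2 (median 0.40).

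Of 38 measured myeloid transcription factors, 11 were higher and 3 lower than in earlier cells (median 0.42), where 10.8% of all genes were higher and 24.2% lower. Against later cells, 2 of 33 were higher and 8 lower (median -0.56), where 5.12% of all genes were higher and 8.15% lower. Cebpb, which replaces earlier C/EBP factors in mature neutrophils, was at 517, 1229 and 3128 CPM, while Cebpd was at 289.8, 217 and 216 CPM and Spi1, which encodes PU.1, at 263, 287 and 421 CPM. Junb was at 91.3, 361 and 1025 CPM and Mxd1, a MYC antagonist, at 248, 814 and 1280.2 CPM. Gfi1, a transcriptional repressor, was at 19.6, 2.88 and 2.40 CPM and Id2 at 72.0, 32.7 and 45.2 CPM. Ets1 was level with earlier cells and 2.08-fold (interval 1.82 to 2.39) higher than in later cells, at 205, 192 and 92.5 CPM, with a log2 ratio over later cells that ran from 0.90 to 1.72 over the alternatives. The other factor called higher than in later cells, Gata2, had 71.1% of its UMIs in 3 barcodes, and it had under 50 UMIs without the 3 barcodes richest in basophil markers.

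Genes of nuclear shape and chromatin were mostly lower than in earlier cells, with a median of -1.04. In that comparison 10.8% of all genes were higher and 24.2% lower. Of 15 measured, 2 were higher than in earlier cells, Lmnb1, lamin B1, at 234, 883 and 1209 CPM and Padi4, which citrullinates histones, at 33.4, 117 and 182 CPM. Another 8 were lower, among them Hmgn2 at 1503, 441 and 261 CPM and Dnmt1, the maintenance DNA methyltransferase, at 121, 21.0 and 14.7 CPM. Against later cells, 1 of 14 was higher and 3 lower, with a median of -0.09 that was 0.47 with limits scaled by depth, and the lower ones were histone genes, such as Hist1h2bc at 54.6, 30.3 and 122 CPM. Hist1h2be was among the 18 genes below both neighbours.

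By list median, cytokine and chemokine genes stood above earlier and below later cells. Of 15 measured cytokine and chemokine genes, 8 were higher and 0 lower than in earlier cells (median 1.10), where 10.8% of all genes were higher. Against later cells, 0 were higher and 10 lower (median -1.64), where 8.15% of all genes were lower. Ccl6 was at 11.3 CPM in earlier, 263 CPM in intermediate and 1386 CPM in later cells, a log2 ratio of 4.54 over earlier cells (3.46 to 6.04 over the alternatives), and was 5.27-fold (interval 4.95 to 5.61) lower than in later cells. The ratio over later cells was -3.43 on the log2 scale with limits scaled by depth and -1.81 with every cell given the same weight. Cxcl2, a ligand of CXCR2, was at 1.67, 40.3 and 476 CPM, Il1rn, the interleukin-1 receptor antagonist, at 8.87, 98.2 and 200.4 CPM, and Osm, oncostatin M, at 29.1, 209.5 and 343 CPM. The median against earlier cells was 0.39 when earlier cells also had to hold 10 Mmp8 and Retnlg UMIs. Of toll-like and NF-kB genes, 5 of 20 were higher than in earlier cells (median 0.58), and 1 was higher and 9 lower than in later cells (median -0.55), with Nlrp3, the inflammasome sensor, at 1.67, 23.1 and 132 CPM.

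Interferon response genes had the highest list median against earlier cells. Of 22 measured, 15 were higher and 0 lower (median 1.77), where 10.8% of all genes were higher. Against later cells, 0 of 23 were higher and 11 lower (median -0.92), where 8.15% of all genes were lower. Ifitm6, a member of the interferon-induced transmembrane family, was at 988 CPM in earlier, 3522 CPM in intermediate and 1763 CPM in later cells, 3.56-fold (interval 3.48 to 3.65) higher than in earlier and 2.00-fold (interval 1.94 to 2.06) higher than in later cells, and had a UMI in 897 cells. Its log2 ratio over earlier cells, 1.83, was 1.08 when those also had to hold 10 Mmp8 and Retnlg UMIs. Irf7, the interferon regulatory factor, was at 9.96, 57.2 and 48.0 CPM and Oasl2 at 1.67, 21.0 and 84.96 CPM. Ifitm1, at 6.28, 63.2 and 187 CPM, had 51.1% of its UMIs in 3 barcodes. Genes of immediate-early and dissociation stress, which enzyme release can induce, were higher for 11 and lower for 3 of 23 against earlier cells (median 0.97) and lower for 8 of 21 against later cells (median -0.58). Dusp1 was at 16.5, 133 and 701 CPM, and the part of the release step in these values was not tested.

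S100a6 and Fth1 stood between the neighbours, but the S100 genes had no common order. S100a6, a calcium-binding protein, was at 234 CPM in earlier, 3246 CPM in intermediate and 7436 CPM in later cells, 13.8-fold (interval 13.3 to 14.4) higher than in earlier cells and 2.29-fold (interval 2.24 to 2.34) lower than in later ones. Its log2 ratio over earlier cells, 3.79, was 2.72 when earlier cells also had to hold 10 Mmp8 and Retnlg UMIs, and that over later cells was under 2-fold at -0.89 with cells thinned before summing. Of the 6 genes of the S100 list, 2 were higher and 2 lower than in earlier cells (median -0.55), and 0 were higher and 2 lower than in later cells (median -0.61). The median over earlier cells turned to 0.89 with limits scaled by depth and to 0.05 when earlier cells also had to hold 10 Mmp8 and Retnlg UMIs. Fth1, the ferritin heavy chain, was at 667, 2733 and 6249 CPM. Actin and migration genes were higher for 7 of 33 and lower for 0 against earlier cells (median 0.59), where 10.8% of all genes were higher. None of 33 was called against later cells (median -0.15). Capg, an actin-capping protein, was at 76.9, 263 and 213 CPM and Lsp1, a leukocyte actin-binding protein, at 138, 445 and 792 CPM.

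Few genes, 33 of 6496 (0.508%), were at least 2-fold above both neighbours. Of the 33, 14 had over 25% of their UMIs in 3 barcodes. The foremost of these were Mcpt8 with 495 of 508 UMIs, Prss34 with 268 of 287 and Cpa3 with 77 of 81, all genes of basophils or mast cells, and Pf4 of platelets had 200 of 239 UMIs in 1 barcode. The other 19 were spread over cells. Acpp, an acid phosphatase, had 1458 UMIs in 609 cells and log2 ratios of 1.24 and 1.03 over earlier and later cells. Fmnl2, a formin, had 382 UMIs in 275 cells, with ratios of 1.36 and 2.16, and Fosl1, a FOS-family factor, 433 UMIs in 263 cells, with 1.67 and 1.32. Lrrc28 was at 8.37, 32.9 and 11.3 CPM and Tmem45a2 at 11.4, 27.4 and 2.74 CPM. Hsd17b7, an enzyme of cholesterol synthesis, had ratios of 1.06 and 2.12 in 160 cells, and Nrp1, neuropilin 1, 1.87 and 1.13 in 116 cells. Without mixed barcodes, 20 genes were above both neighbours, 14 of them among the 33. Acpp, Fmnl2, Fosl1, Hsd17b7 and Nrp1 were singled out after their values were seen.

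Highest over earlier cells, leaving out these basophil genes and Myl2, which had 22.9% of its UMIs in 3 barcodes, were Bst1, an ectoenzyme, at 1.93, 76.2 and 175 CPM, Tarm1, a receptor of myeloid cells, at 1.26, 49.4 and 120.2 CPM, Acod1, which makes itaconate, at 2.01, 77.4 and 342 CPM, and Gpr27 at 1.84, 60.9 and 73.7 CPM. All 4 were detected in more than 190 intermediate cells and were highest in later cells. A further 2 genes had no UMI in intermediate cells: Hsd17b1 was at least 8.54-fold and Hist1h2ag at least 7.05-fold higher in earlier cells, against a limit of 3 counts for the stage. Among the lowest against later cells, Fgl2 had UMIs in 50 and Wfdc17 in 35 intermediate cells, at log2 ratios of -3.14 and -3.41.

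Members were then ordered by their own specific granule share. UMIs of each cell were split at random into 2 parts, cells were ordered on 1 part and divided into 4 bins of 239, 238, 238 and 238 cells, and levels were taken from the other part. The granule share in that part was 2.56%, 8.65%, 14.2% and 17.3% from the lowest to the highest bin. Depth was ordered the same way, with median UMIs of 2406, 4199.5, 5201.5 and 6277, and mixed barcodes numbered 29, 41, 13 and 6. Haemoglobin made up 7.52%, 9.83%, 0.520% and 0.195% of UMIs. Cells with no UMI of Il1b and Cxcr2 numbered 51, 87, 136 and 163, and those with none of Fcnb and Cebpe 224, 175, 145 and 84. Comparing the highest with the lowest bin, 185 of 2502 genes (7.39%) were higher and 387 (15.5%) lower.

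**Figure D4:**
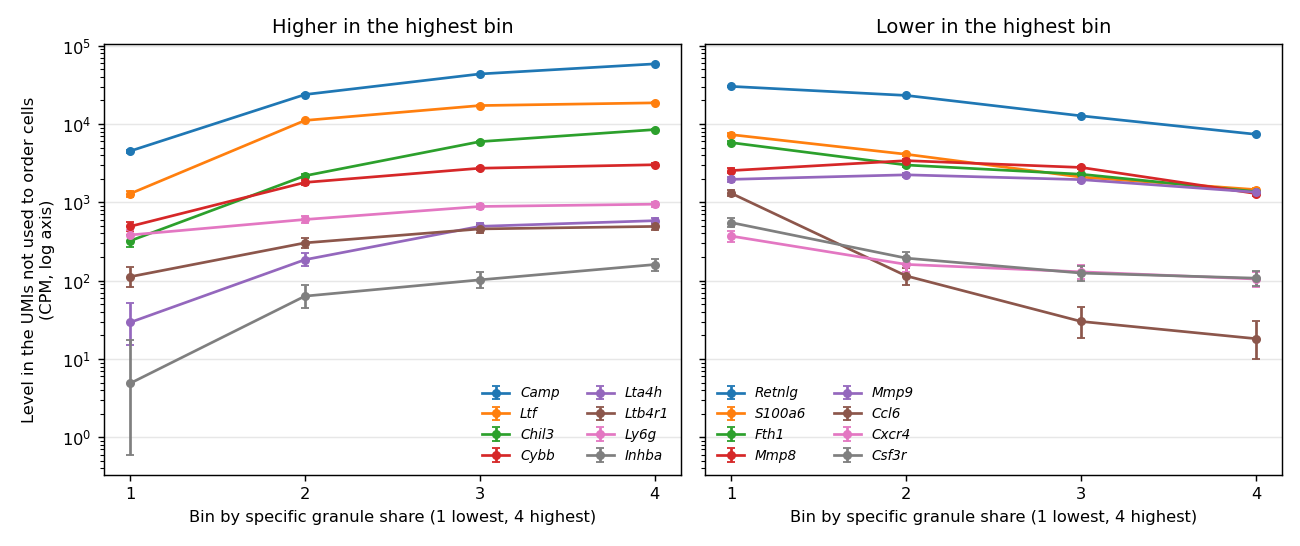
Level of 16 genes in 4 bins of the intermediate cells, ordered by specific granule share, on a log axis in CPM of the UMIs not used for ordering, with exact Poisson 95% intervals. Camp, Ltf and Chil3 are lowest in the lowest bin, Ccl6 is lower at each step, and Mmp8 and Mmp9 peak in the second bin. Mmp8 and Retnlg belong to the rule, and Camp, Ltf, Chil3 and Cybb to the list used for ordering.

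Cells with a high granule share also had more of several genes outside the list. Lta4h, the leukotriene A4 hydrolase, was at 29.2, 185, 494 and 583 CPM from the lowest to the highest bin, 19.9-fold (interval 11.3 to 38.9) higher in the highest. Ltb4r1, the receptor of its product, was at 112, 303, 457 and 492 CPM, 4.39-fold (interval 3.23 to 6.10) higher. Inhba, a subunit of activins, was at 4.87, 63.4, 102 and 161 CPM and Zmpste24, the lamin A protease, at 29.2, 125, 397 and 487 CPM. Ly6g was at 383, 603, 885 and 947 CPM, Ifitm6 at 1333, 3091, 4248 and 4447 CPM, Lyz2 at 4171, 6352, 10095 and 12828 CPM and Ets1 at 82.8, 154, 235 and 249 CPM. Each of these 8 was highest in the highest bin, and none belongs to the list used for ordering. Inhba, Zmpste24, Lta4h and the genes of the next paragraph were named after their values were seen.

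Other genes had the reverse order. Ccl6 was at 1303, 115, 30.1 and 18.1 CPM, 71.9-fold (interval 42.5 to 132) higher in the lowest bin. S100a6 was at 7307, 4108, 2099 and 1452 CPM, Fth1 at 5779, 2993, 2283 and 1366 CPM, Cebpb at 2483, 1442, 986 and 730.4 CPM and Csf3r at 551, 194, 125 and 107 CPM. Cxcr4 was at 370.3, 161, 129 and 105 CPM, 3.53-fold (interval 2.68 to 4.68) higher in the lowest bin. Retnlg, a gene of the rule, was at 30206, 23160.4, 12701 and 7379 CPM. Mmp9 held a narrower range of 1964, 2244, 1949 and 1347 CPM, with the highest value in the second bin, and Mki67 did not differ beyond counting error at 95.02, 105, 104 and 105 CPM.

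By list, 0 of 14 gelatinase granule genes were higher and 5 lower in the highest bin (median -0.73), against 12 higher and 2 lower of 20 specific granule genes, which set the order. Receptors were higher for 4 and lower for 13 of 30 (median -0.79), and retention and egress genes lower for 4 of 9 (median -0.96). NADPH oxidase genes were higher for 1 of 7, Cybb, which is also in the list that set the order. Ribosomal protein genes were lower for 17 of 79 (median -0.69), but lower for 3 of 78 (median -0.13) without mixed barcodes, where the all-gene median was -0.22 in place of -0.17. The counts over all genes changed little without these barcodes, to 189 higher and 409 lower of 2165.

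Shares of cells with a UMI were compared after thinning every cell to 1000 UMIs. The 3306 barcodes with at least 10 UMIs of Cd79a and Cd79b (Cd79-rich), with a median of 3915.5 UMIs before thinning, served as cells that should lack neutrophil genes. All of them were also below the limit on S100a8 and S100a9, with a highest share of 4.99%. Barcodes with much neutrophil RNA were thus left out of this group, and the background shares taken from it could be too low. Ly6g was seen in 19.6% of earlier, 47.5% (interval 44.3 to 50.8) of intermediate and 31.0% of later cells, and in 0.302% of the Cd79-rich barcodes. Unthinned, the shares were 62.4, 83.3 and 58.7%. Mmp9 was seen in 10.2% of earlier, 80.5% (interval 77.8 to 83.0) of intermediate and 83.0% of later cells, and in 1.24% of the Cd79-rich barcodes. Unthinned shares were 29.2, 95.2 and 95.7%. After thinning, the order of the stages was the same in shares of cells as in summed levels for both genes, while the unthinned shares put Ly6g higher in earlier than in later cells. Thinned to 2000 UMIs, which only 852 intermediate cells reached, the shares in these cells were 69.0% for Ly6g and 89.2% for Mmp9.

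Thinned shares depend on the depth chosen and on the cells that reach it. At 2000 UMIs, the shares were 96.8% for Camp, 82.9% for Chil3, 47.3% for Ltb4r1 and 20.7% for Ccl6. These are of the 852 intermediate cells with at least 2000 UMIs, while shares at 1000 UMIs are of all 953. A difference between the 2 depths is therefore not an effect of depth alone. At 1000 UMIs, Camp was seen in 100% of earlier, 90.6% (interval 88.5 to 92.3) of intermediate and 55.0% of later cells, with a background of 18.2% in Cd79-rich barcodes, and Chil3 in 94.7% of earlier, 69.9% (interval 66.9 to 72.8) of intermediate and 23.3% of later cells, with a background of 4.84%. Ltb4r1 was seen in 30.8% of earlier, 29.6% (interval 26.7 to 32.6) of intermediate and 10.6% of later cells, with 0.575% as background. Fpr2 was seen in 12.1% of earlier, 34.6% (interval 31.6 to 37.7) of intermediate and 26.1% of later cells, with 0.181%. Ccl6 was seen in 0.616% of earlier, 20.8% (interval 18.2 to 23.5) of intermediate and 62.1% of later cells, with 1.91%, and Csf3r in 5.17% of earlier, 23.6% (interval 20.9 to 26.4) of intermediate and 55.6% of later cells, with 1.21%. Elane, by contrast, was seen in 25.5% of earlier, 0.944% (interval 0.433 to 1.79) of intermediate and 0.816% of later cells, and in 1.12% of Cd79-rich barcodes, so its share in intermediate cells was at background.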

How the data were processed

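Droplet-based single-cell RNA-seq of tibial cells gave 1 matrix of UMI counts, 31053 genes by 15014 barcodes. These are raw counts deposited by the authors, made with Cell Ranger 3.1.0 on mm10, which with Seurat 3 are named in the submitters' processing notes. A deposited table of added-sequence counts holds the tdTomato, WPRE and EGFP reads. Doublets had not been removed as far as the sources used here say. Scrublet marked 36 of the 953 members (3.78%), 35 earlier (4.31%) and 29 later cells (3.38%), and these were kept. Members and gene lists were chosen with earlier results of these data known. Levels are summed UMIs as CPM with exact Poisson intervals, ratios have 0.5 counts added and exact binomial intervals, and shares of cells have Clopper-Pearson intervals. The 1 pooled matrix cannot be divided into replicates, so nothing was tested. Genes under 50 UMIs, mitochondrial genes and genes of the rule were left out of counts of genes. The calculations were checked on simulated data. Genes were named from the 4 markers and the genes of the rule, up to 2 highest and 2 lowest members of each list in each comparison, the 10 highest and 10 lowest genes of each comparison, and the 10 genes furthest above or below both neighbours. Other genes were named after their values were seen. A few genes of the lists are not reported here by name. Alternatives changed the limits, depth, scaling, filter and doublet handling. Those that leave out mixed barcodes, or the 3 barcodes richest in basophil markers, were added after seeing the data. Positions are on GRCm38, to which mm10 corresponds, and promoter sequences come from RefSeq. Scripts used Python 3.11.15 with scanpy 1.11.5.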

Additional observations from a re-analysis of the deposited data

Results flagged for a closer look

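WPRE, a sequence counted in a separate matrix beside the genome's genes, was detected although the labels do not name it. It had 246 UMIs in 190 of the 953 intermediate neutrophils (19.9%, exact 95% interval 17.4 to 22.6), 50.6 CPM (interval 44.5 to 57.4), above the 3 counts that a count of 0 would allow. Without thinning, a UMI was seen in 25.5% of earlier and 23.9% of later cells, whose median depths were 14251.5 and 2693 UMIs. The level was 24.1 CPM in earlier and 91.8 CPM in later cells, a rise that these shares of cells did not show. It was 54.2 CPM in the 9087 other barcodes that passed quality, which were below the S100a8 and S100a9 limit or above the Cd79 limit. The Cd79-rich ones among these had 40.9 CPM, so WPRE was found in each of these groups. In the same matrix, tdTomato had 2 UMIs and EGFP 1 UMI in intermediate neutrophils. The cause was not tested.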

How the results depend on the processing

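Leaving out a sample was not possible, since the 4 records are in 1 matrix. No paired analysis was possible because cells cannot be tied to records. The number of members was 244 with no UMI of Fcnb, Cebpe, Il1b and Cxcr2 allowed. Genes higher than in later cells (336) numbered 176 under that rule, 633 with limits scaled by depth, 540 scaled without the 50 most abundant genes, 608 and 118 at minimums of 20 and 200 UMIs, and 1003 at 1.5-fold. Genes lower than in later cells (535) numbered 305 at 200 UMIs and 1162 at 1.5-fold. Genes higher than in earlier cells (928) numbered 600 at 200 UMIs, 1704 at 1.5-fold and 606 when earlier and later cells also needed 10 Mmp8 and Retnlg UMIs. Genes lower than in earlier cells (2077) numbered 1234, 3191 and 968 under the same settings. Among ratios of at least 2-fold, signs turned, on the log2 scale, as follows. With no UMI of the 4 limiting genes, Il1b was at -3.07 and Cxcr2 at -5.13 over earlier cells, and Fcnb at -2.90 and Cebpe at -6.48 over later cells, which the setting's own limits fix. With limits scaled by depth, S100a4 was at 1.64, Ccl5 at 1.06, Mgst3 at 1.07 and Cd79a at -0.19 over earlier cells, and Iglc2 at -0.013 and Mgst3 at 2.53 over later cells. S100a4 was at 0.12 over earlier cells without Scrublet doublets. With cells thinned before summing, Ms4a2 was at -0.97 over earlier cells, and Ms4a3 at -0.15, Pf4 at -0.70 and Mgst3 at 0.33 over later cells. The cause of these was not tested. Of the gene ratios recomputed, 5406 moved by less than their interval, 1204 by more, and these 15 of at least 2-fold turned. Ratios under 2-fold that crossed 0 are among the others. Depth limits genes under 50 UMIs, and intervals cover counting error only.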

Other observations

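Of 26 glycolysis and glycogen genes measured, 3 were higher and 1 lower than in earlier cells (median log2 ratio 0.28), where 10.8% of all genes were higher and 24.2% lower. Against later cells, 1 was higher and 1 lower (median 0.13), where 5.12% of all genes were higher and 8.15% lower. The same all-gene shares apply to the lipid mediator genes below. Slc16a3, the lactate exporter MCT4, was at 105 CPM in earlier, 635 CPM in intermediate and 1102 CPM in later cells, and Ldha, lactate dehydrogenase A, at 428, 636 and 345 CPM. Lipid mediator genes were higher for 3 and lower for 2 of 19 against earlier cells (median 0.40), and higher for 2 and lower for 2 of 17 against later cells (median -0.12). Lta4h, which makes leukotriene B4, was at 579, 360.2 and 74.3 CPM, Alox5ap, its partner upstream, at 652, 1110.0 and 1208 CPM, and Ptgs2, cyclooxygenase 2, at 0.753, 14.4 and 121 CPM.

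Survival and death genes were higher for 8 and lower for 1 of 24 against earlier cells (median 0.33), where 10.8% of all genes were higher and 24.2% lower. Against later cells, 5 of 24 were lower and 0 higher (median -0.34), where 8.15% of all genes were lower and 5.12% higher. The same all-gene shares apply to the iron, copper and antioxidant genes below. Mcl1, the factor on which neutrophil survival depends, was at 265, 571 and 1186 CPM, and Bcl2l1 at 13.1, 46.9 and 81.5 CPM. Of the iron, copper and antioxidant genes, 1 of 20 was higher and 3 lower than in earlier cells (median 0.12, and -0.083 with no UMI of Fcnb, Cebpe, Il1b and Cxcr2 allowed), and 0 were higher and 2 of 18 lower than in later cells (median -0.43). Hmox1, haem oxygenase 1, was at 8.20, 15.6 and 50.02 CPM.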
